A study of Homo sapiens with 6 samples.

Results

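The genes described here are 42 interferon-stimulated genes and the transcription factors that drive them, read in poly(A) RNA of HCT116 cells with and without knockdown of Matrin3. They were chosen by symbol, as genes known to respond to interferon or to carry its signal, with earlier results of these data known. All 42 were found among the 56632 genes of the expression tables. HCT116 is an established human colorectal cancer line, and Matrin3, the product of MATR3, binds RNA in the nucleus. The siMatrin3 cells received a pool of small interfering RNAs against Matrin3 and the siCTRL cells an unrelated negative control siRNA. Both groups were transfected on 2 occasions, with 72 and 48 hours in the labels, while the study's methods describe a later harvest after reseeding. Each of the 2 groups had 3 libraries, which the methods call biological triplicates, so p-values measure the spread between these libraries. No untransfected cells and no second siRNA reagent were examined here, and reagent effects unrelated to Matrin3 loss were not tested. The labels name no interferon treatment.

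Interferons are secreted proteins that cells release when they sense viral nucleic acid. Type I interferons bind a receptor made of IFNAR1 and IFNAR2, whose kinases JAK1 and TYK2 phosphorylate STAT2. STAT2 acts with IRF9 in the complex ISGF3, which enters the nucleus and binds the interferon-stimulated response element in the promoters of target genes. Many targets block steps of viral replication, others modify proteins with the ubiquitin-like ISG15, and several, such as IRF7, IRF9 and USP18, feed back on the pathway. Epithelial cells in culture express many of these genes at low levels without added interferon.

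Depth and the knockdown were checked before the members were read. The libraries held 40808173 to 54185650 expected counts (RSEM's estimates of the reads from a gene), and the variation between replicates beyond counting error was 5.98% for a typical gene. MATR3 had 95.2, 112 and 111 TPM (transcript abundance corrected for length and scaled to a common total) in siMatrin3 and 186, 180 and 176 TPM in siCTRL, a log2 fold change of -0.93 with an SE of 0.0647 (edgeR adjusted p = 7.67e-05). The 6 epithelial markers summed to 2690 to 2920 TPM in siMatrin3 and 2950 to 3100 TPM in siCTRL, without overlap. The lower sum lay in the abundant keratins KRT18, which was called lower (log2 fold change -0.15, edgeR adjusted p = 0.033), and KRT8 (-0.11, not called). EPCAM, KRT19, CDX2 and CDH1 had log2 fold changes of 0.03, 0.15, 0.04 and -0.02, none past the test, and the part of the keratins in the results below was not tested. The leukocyte marker PTPRC and the fibroblast markers DCN and COL1A2 were at 0 in every library. Other markers of these lists were detected, chiefly CD68 and COL1A1. CD68 had 12.1 to 18.2 TPM in siMatrin3 and 11.5 to 16.5 TPM in siCTRL. COL1A1 had 14.8 to 19.0 TPM in siMatrin3 and 13.6 to 16.1 TPM in siCTRL.

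Of the 42 members, 35 had enough counts to be tested, and 12 of them fell in siMatrin3 while 0 rose. In edgeR's quasi-likelihood test, adjusted by Benjamini-Hochberg over 16786 genes, 34.3% of the tested members were called lower, where 5.97% of all genes tested were called lower and 5.05% were called higher. The list was chosen with earlier results of these data known, so these shares describe it and do not test it for enrichment. At an unadjusted p under 0.05, 20 members were lower and 0 higher. The share of all genes at that unadjusted level was not counted, here or for the lists below. The adjusted shares above are therefore no background for the 20. DESeq2 called 9 members lower and 0 higher, with 5.59% of all genes called lower. The members that fell were the factors IRF7 and IRF9, the antiviral effectors IFIT2, OAS3, IFITM2 and IFITM3, the ISG15-related genes HERC6 and USP18, the partners DTX3L and PARP9, and EPSTI1 and SP110. Since RNA came from whole cultures, fewer cells expressing a gene and less RNA per cell cannot be told apart.

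The falls were mostly modest. The median log2 fold change of the 35 tested members was -0.25, against 0.00 for all genes tested, and only EPSTI1 among the called members fell by more than 1 on the log2 scale. In 25 tested members the fold change was negative and in 10 it was positive. Among the 23 members without a call, 13 were negative and 10 positive. All 35 tested members had at least 10 expected counts in every library, so none was tested on the strength of its siCTRL level alone.

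**Figure D1:**
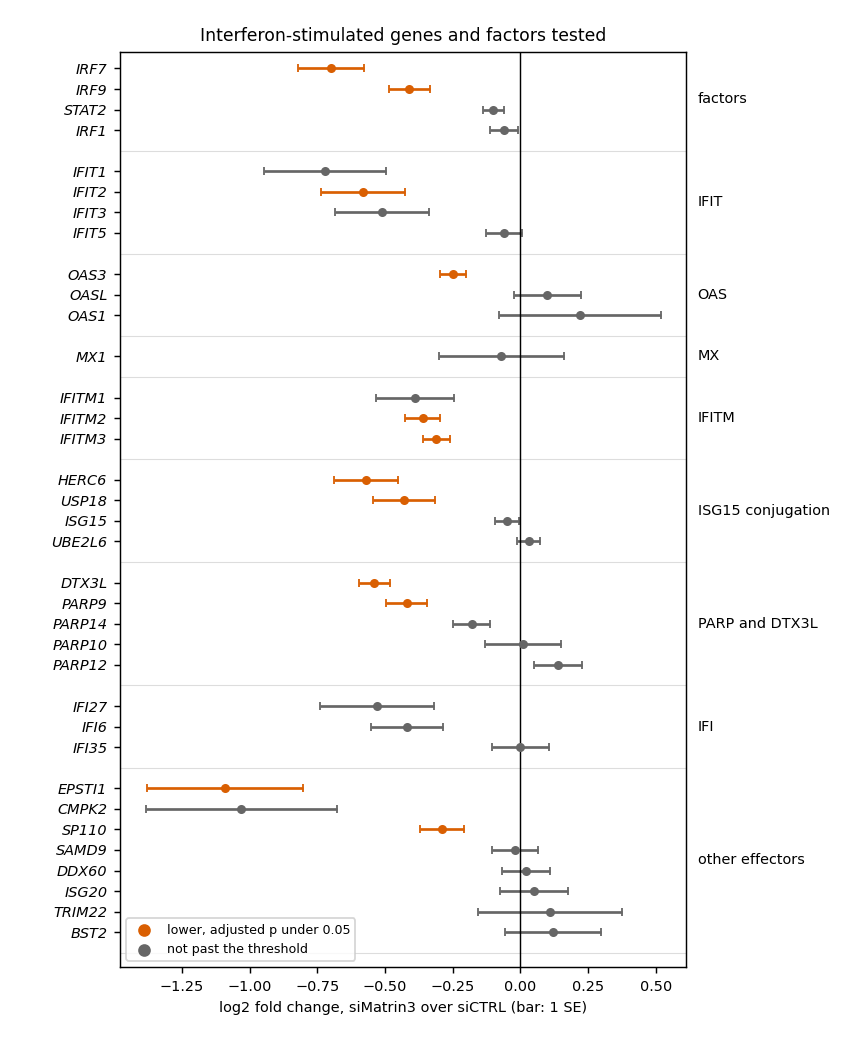
Log2 fold change (siMatrin3 over siCTRL, horizontal axis) of the 35 tested members, grouped by role, where each point is the edgeR estimate and each bar 1 SE. Orange marks the 12 members called lower at an adjusted p under 0.05, grey the 23 without a call, and no member was called higher.

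The calls differed in how firm they were. Of the called members, DTX3L, PARP9, IFITM2 and IFITM3 (4 of the 12) kept their call in all 16 alternative settings, and 8 did not. Those 4 were also the only members called with an offset for transcript length, where 2.48% of all genes were called lower, and with limma on log2(TPM + 1), where 1.7% were. Of the 16 tested members with a mean of at least 5 TPM, 7 fell, and of the 19 below that level, 5 fell, a difference that was not tested.

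Read library by library, the mean over the tested members was lower in each siMatrin3 library than in any siCTRL library. Relative to the siCTRL mean, the mean log2 CPM (counts scaled to library size) of the 35 tested members was -0.242, -0.273 and -0.268 in the siMatrin3 libraries and -0.0152, 0.0501 and -0.0349 in the siCTRL libraries. For the 23 members without a call it was -0.106, -0.178 and -0.145 in siMatrin3 and -0.0226, 0.0626 and -0.04 in siCTRL. These means did not overlap between the groups in either set. The medians of the 23 members without a call did overlap, at 0.00443, -0.0493 and -0.0927 in siMatrin3 and -0.00908, 0.0655 and -0.0234 in siCTRL. In TPM, the highest siMatrin3 library lay below the lowest siCTRL library for 15 of the 35 tested members, where this held for 15.2% of all genes. It also held for 9 of the 12 called members, but these were picked by a test on the same libraries, so that count adds no support.

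The response element was looked for in the promoters, since it is the sequence through which ISGF3 acts. RefSeq promoter windows (GRCh38.p14, 250 bases before to 50 bases after the start) were found for 33 of the 42 members. A match was TTTC repeated after a gap of 2 bases, or GAAA repeated in the same way on the other strand. Such a match lay in the window of 22 of the 33 members (66.7%), against 4.38% of the 27305 genes with a window. It lay in 5 of the 8 called members with a window (62.5%) and in 14 of the 20 tested members without a call (70.0%), and this difference was not tested. Matches of the gamma-activated sequence, TTC and GAA 3 bases apart, lay in 12 of 33 members (36.4%) and in 9.38% of all genes. A match describes letters in a window and does not show that a factor binds there.

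Windows of 30 bases are shown for called members, and for ISG15, an abundant member without a call, with the matches in capitals.
DTX3L: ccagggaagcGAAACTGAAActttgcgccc
PARP9: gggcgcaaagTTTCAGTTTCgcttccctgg
IFITM3, farther match: caaatgccagGAAAAGGAAActgttgagaa
IFITM3, nearer match: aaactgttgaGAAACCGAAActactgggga
EPSTI1: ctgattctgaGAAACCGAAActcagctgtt
OAS3, farther match: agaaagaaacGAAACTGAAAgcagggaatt
OAS3, nearer match: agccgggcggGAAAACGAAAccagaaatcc
ISG15: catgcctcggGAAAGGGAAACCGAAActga
The DTX3L window lies at chr3:122564322-122564351 on the plus strand and the PARP9 window at the same position on the minus strand, so a single match stands in both promoters. Its first base lies 6 bases before the DTX3L start, so that it spans this start, and 41 bases before the PARP9 start. The IFITM3 windows lie at chr11:320893-320922 and chr11:320876-320905 on the minus strand, and that of EPSTI1 at chr13:42992272-42992301 on the minus strand. The OAS3 windows lie at chr12:112938321-112938350 and chr12:112938452-112938481 and that of ISG15 at chr1:1013374-1013403, all on the plus strand. The ISG15 window holds 2 overlapping matches, and ISG15 was not called in either direction.

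**Figure D2:**
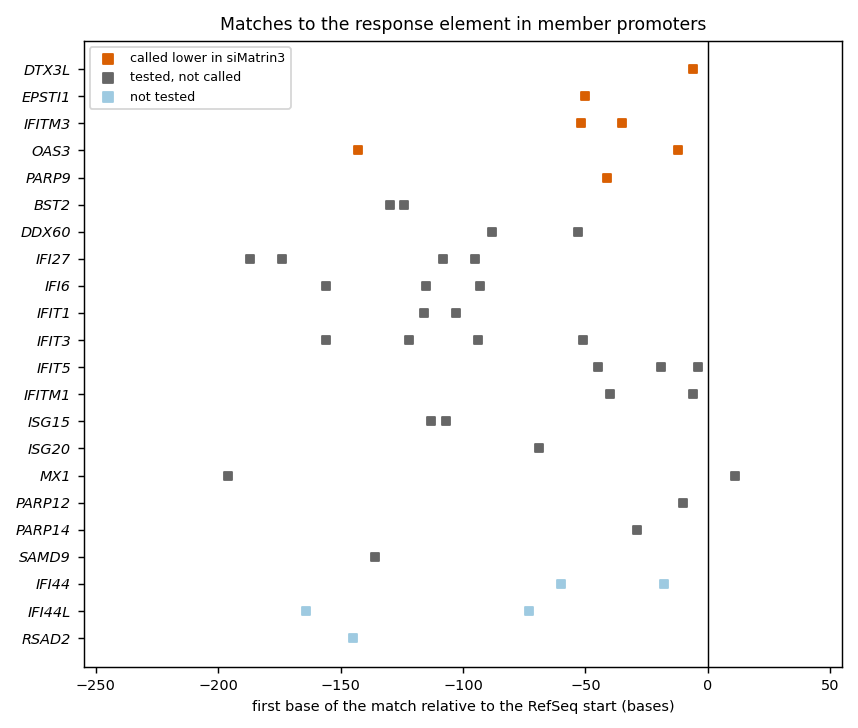
Position of each match to the response element in the promoter windows of the 22 members that hold one (horizontal axis, bases from the RefSeq start at 0; members run down the page, and a member with 2 annotated starts shows the matches of both). Orange squares are members called lower in siMatrin3, grey squares tested members without a call and blue squares members that were not tested, and matches of all 3 kinds lie mostly upstream of the start.

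The factors were read next, because they sit upstream of the other members. IRF9 (ENSG00000213928, chromosome 14), the DNA-binding subunit of ISGF3, had 434, 373 and 418 expected counts in siMatrin3 and 635, 468 and 540 in siCTRL. Scaled for depth, these were 8.13, 8.67 and 9.19 CPM in siMatrin3 and 12.0, 11.3 and 11.1 CPM in siCTRL, and the groups did not overlap. IRF9 thus fell, with a log2 fold change of -0.41 (SE 0.0748, adjusted p from edgeR = 0.00814). IRF7 (ENSG00000185507, chromosome 11), the factor that amplifies type I interferon production, had 4.38, 5.27 and 3.93 CPM in siMatrin3 and 6.55, 8.18 and 7.35 CPM in siCTRL. It fell more than IRF9, with a log2 fold change of -0.70 (SE 0.123, adjusted p from edgeR = 0.00694), and again the groups did not overlap.

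The other 2 factors did not pass the test. STAT2, a subunit of ISGF3, had 27.4, 27.5 and 28.8 TPM in siMatrin3 and 29.4, 31.2 and 30.7 TPM in siCTRL. The groups do not overlap, but the difference was small (log2 fold change -0.10, SE 0.0379, adjusted p from edgeR = 0.115). IRF1, an activator induced mainly by interferon gamma, had 22.1, 19.0 and 19.8 TPM in siMatrin3 and 22.1, 20.8 and 18.2 TPM in siCTRL, with overlapping groups (log2 fold change -0.06, edgeR adjusted p = 0.509).

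IRF7 and IRF9 lost their calls in the fit with an offset for transcript length. Whether their own lengths were the reason was not tested. That fit called 2.48% of all genes lower, against 5.97% without the offset. RSEM gives each gene a transcript length averaged over its isoforms by their estimated abundance, and TPM divides by it. For IRF7 this length was 1315, 1162 and 1362 bases in siMatrin3 and 1479, 1164 and 1148 bases in siCTRL. For IRF9 it was 1072, 1437 and 1530 bases in siMatrin3 and 1483, 1064 and 1408 bases in siCTRL. The lengths varied within each group, and so did TPM, which for IRF7 was 4.67, 6.54 and 4.06 in siMatrin3 and 6.20, 10.3 and 9.33 in siCTRL. With an offset for transcript length the log2 fold change of IRF7 was -0.74 (adjusted p = 0.0851, range over 16 alternatives 5.71e-08 to 0.131) and that of IRF9 was -0.44 (adjusted p = 0.156, range 0.000154 to 0.184). IRF9 also lost its call without replicate 1 of both groups (edgeR adjusted p = 0.0593). IRF9 exons overlap those of a second annotated gene on its strand, and some of its reads were divided between genes.

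**Figure D3:**
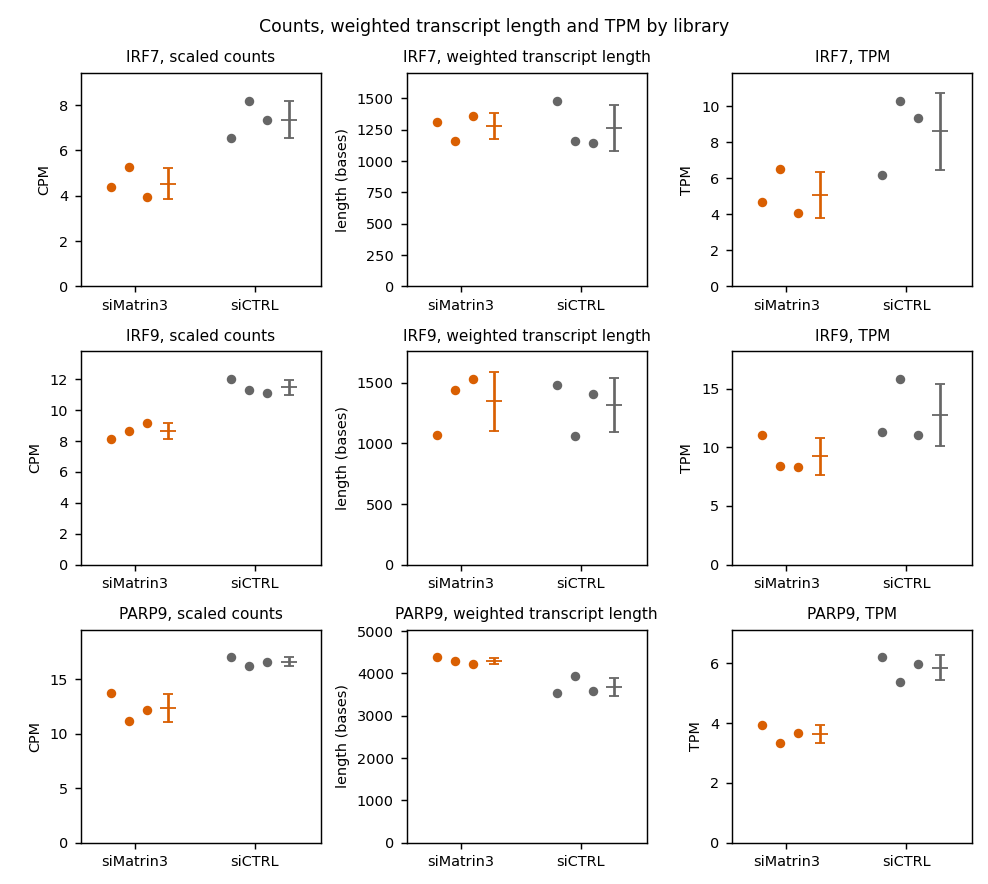
Scaled counts (CPM), weighted transcript length (bases) and TPM of IRF7, IRF9 and PARP9 by library, where each point is a library of siMatrin3 (orange) or siCTRL (grey) and the line with its bar is the mean and SD of 3 libraries. The CPM groups of all 3 genes are apart, the lengths of IRF7 and IRF9 scatter within each group, and the length of PARP9 is greater in all 3 siMatrin3 libraries.

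The length itself was tested for 22 members as a measure of isoform use. No member passed (limma, adjusted over 11987 genes, of which 1, or 0.00834%, passed), and 2 members, PARP9 and IFI35, had an unadjusted p under 0.05. PARP9 had 4378, 4283 and 4226 bases in siMatrin3 and 3536, 3928 and 3574 bases in siCTRL, a log2 difference of 0.22 (limma adjusted p = 0.523). DTX3L and USP18 had the same length in all libraries, and so their TPM and counts moved together.

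The IFIT proteins bind viral RNA or translation factors and restrain viral protein synthesis. Of the 4 members, IFIT2 fell and the others did not pass the test. IFIT2 had 0.55, 0.65 and 0.78 TPM in siMatrin3 and 1.01, 0.96 and 1.03 TPM in siCTRL (log2 fold change -0.58 with an SE of 0.155, edgeR adjusted p = 0.0371). The groups were apart, but the call was lost when any library other than siMatrin3 replicate 3 was left out, with adjusted p from 0.042 to 0.121 over the 6 fits. IFIT1 had 0.66, 0.79 and 1.22 TPM in siMatrin3 and 1.35, 1.67 and 1.45 TPM in siCTRL, and its log2 fold change of -0.72 was more negative than that of IFIT2 but less precise (SE 0.225, adjusted p from edgeR = 0.0679). IFIT3 had a log2 fold change of -0.51 (edgeR adjusted p = 0.0872). IFIT5, at 7.74 to 8.81 TPM in siMatrin3 and 8.58 to 9.52 TPM in siCTRL, was the most abundant of the family and had a log2 fold change of -0.06. An unnamed gene shares exons with IFIT2 on the same strand.

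The OAS enzymes make oligoadenylates on binding double-stranded RNA and so activate RNase L, and MX proteins are GTPases that trap viral nucleocapsids. OAS3, by far the most abundant of them, had 10.3, 10.4 and 9.17 TPM in siMatrin3 and 11.2, 12.0 and 11.5 TPM in siCTRL. The groups were apart and OAS3 fell, by 0.25 on the log2 scale (SE 0.0483, adjusted p from edgeR = 0.011). The call was lost without siMatrin3 replicate 3 (adjusted p = 0.0611) or without siCTRL replicate 3 (adjusted p = 0.0556), in a range of 0.000168 to 0.156 over 16 alternatives. OASL, a relative that lacks synthetase activity, had 3.56 to 4.18 TPM in siMatrin3 and 3.06 to 4.06 TPM in siCTRL. OAS1 and MX1 stayed under 1 TPM in every library, and the log2 fold changes of OASL, OAS1 and MX1 were 0.10, 0.22 and -0.07, none past the test. OAS2 and MX2 were too low to test.

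The IFITM proteins sit in membranes and block the fusion of enveloped viruses, and they held most of the signal of the list. IFITM3 (ENSG00000142089, chromosome 11) had 326, 345 and 351 TPM in siMatrin3 and 426, 405 and 457 TPM in siCTRL, with no overlap. It alone made up 47.9% to 50.3% of the summed TPM of the 42 members in siMatrin3 and at most 52.8% in siCTRL. IFITM3 fell by 19.6% (log2 fold change -0.31, SE 0.0514, adjusted p from edgeR = 0.00485). IFITM2 (ENSG00000185201, chromosome 11) had 79.4, 84.5 and 84.8 TPM in siMatrin3 and 109.6, 96.5 and 117 TPM in siCTRL. It fell by 22.2% (log2 fold change -0.36, SE 0.065, adjusted p from edgeR = 0.00749). IFITM1 had 2.98, 2.95 and 3.03 TPM in siMatrin3 and 4.19, 4.25 and 3.60 TPM in siCTRL, with no overlap, and did not pass the test (log2 fold change -0.39, SE 0.145, adjusted p from edgeR = 0.114).

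The IFITM genes are close copies of one another, so the division of their reads between them is uncertain. IFITM1 and IFITM2 also share exons with another annotated gene on their strand. The sum of IFITM2 and IFITM3 depends less on how reads were divided between this pair. It was 406, 429 and 435 TPM in siMatrin3 and 536, 501 and 574 TPM in siCTRL, again with no overlap. The sum over all 42 members was 681, 701 and 697 TPM in siMatrin3 and 828, 809 and 867 TPM in siCTRL.

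ISG15 is a ubiquitin-like protein that UBE2L6 and a ligase attach to other proteins, and USP18 removes it and also restrains the interferon receptor. Of these 4 members, HERC6 and USP18 fell, and the more abundant ISG15 and UBE2L6 did not pass the test. ISG15 had 74.4, 79.97 and 73.96 TPM in siMatrin3 and 80.05, 80.2 and 79.1 TPM in siCTRL. The difference was small and not past the test (log2 fold change -0.05, SE 0.0435, adjusted p from edgeR = 0.535). UBE2L6 had 26.1, 26.9 and 25.3 TPM in siMatrin3 and 25.6, 26.1 and 26.4 TPM in siCTRL, with overlapping groups and a log2 fold change of 0.03.

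USP18 had 1.94, 2.23 and 1.87 TPM in siMatrin3 and 2.74, 2.98 and 2.55 TPM in siCTRL. It fell, with a log2 fold change of -0.43 (SE 0.115, adjusted p from edgeR = 0.0382), but kept its call in only 1 of the 6 fits that left out a library (adjusted p 0.0456 to 0.141), the one without siMatrin3 replicate 2. Its near-identical relative USP41 can take part of its reads. HERC6, whose mouse counterpart is the main ISG15 ligase, had 136, 113 and 111 expected counts in siMatrin3 and 193, 173 and 171 in siCTRL. HERC6 fell by 0.57 on the log2 scale (SE 0.119, adjusted p from edgeR = 0.0142), and its TPM of 1.36, 1.2 and 0.90 in siMatrin3 overlapped the 1.77, 2.28 and 1.27 in siCTRL. It lost its call without siMatrin3 replicate 3 (adjusted p = 0.0631, range over 16 alternatives 0.00167 to 0.242).

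PARP9 and the ubiquitin ligase DTX3L form a complex that acts in DNA repair and in interferon signalling, and their genes lie head to head on chromosome 3. Both fell, and both kept their call in all 16 alternatives. DTX3L (ENSG00000163840) had 5.75, 5.24 and 5.07 TPM in siMatrin3 and 8.25, 7.81 and 7.67 TPM in siCTRL. Its log2 fold change was -0.54 (SE 0.0577, adjusted p from edgeR = 0.000571), a fall of 31.3%, and it had the smallest adjusted p of the 42 members. PARP9 (ENSG00000138496) had 3.93, 3.32 and 3.66 TPM in siMatrin3 and 6.19, 5.37 and 5.98 TPM in siCTRL, also with no overlap. Its log2 fold change on counts was -0.42 (SE 0.0766, adjusted p from edgeR = 0.00777) and with the length offset -0.67 (adjusted p = 0.00616, range over 16 alternatives 3.03e-06 to 0.0448).

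The ratio of DTX3L to PARP9 counts was 1.98, 2.19 and 1.95 in siMatrin3 and 2.26, 2.21 and 2.15 in siCTRL. Some reads were divided between genes for each of them, as shown by expected counts that were not whole in all 6 libraries. The fractional parts of the pair complemented each other in every library. In siMatrin3 replicate 1, for example, DTX3L had 1456.32 expected counts and PARP9 had 733.68. Reads were thus divided within the pair, and the falls of DTX3L and PARP9 and their ratio are not fully separate measurements. The other family members, which also transfer ADP-ribose, did not pass the test. PARP14, downstream at the same locus, had 4.73, 4.21 and 4.04 TPM in siMatrin3 and 5.14, 4.80 and 4.85 TPM in siCTRL, a log2 fold change of -0.18 (edgeR adjusted p = 0.117). PARP12, at 16.0, 13.4 and 12.6 TPM in siMatrin3 and 11.7, 13.3 and 14.01 TPM in siCTRL, was the most abundant and had a positive log2 fold change of 0.14 with overlapping groups. PARP10 stayed at 1.62 to 1.82 TPM in siMatrin3 and 1.51 to 1.81 TPM in siCTRL.

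**Figure D4:**
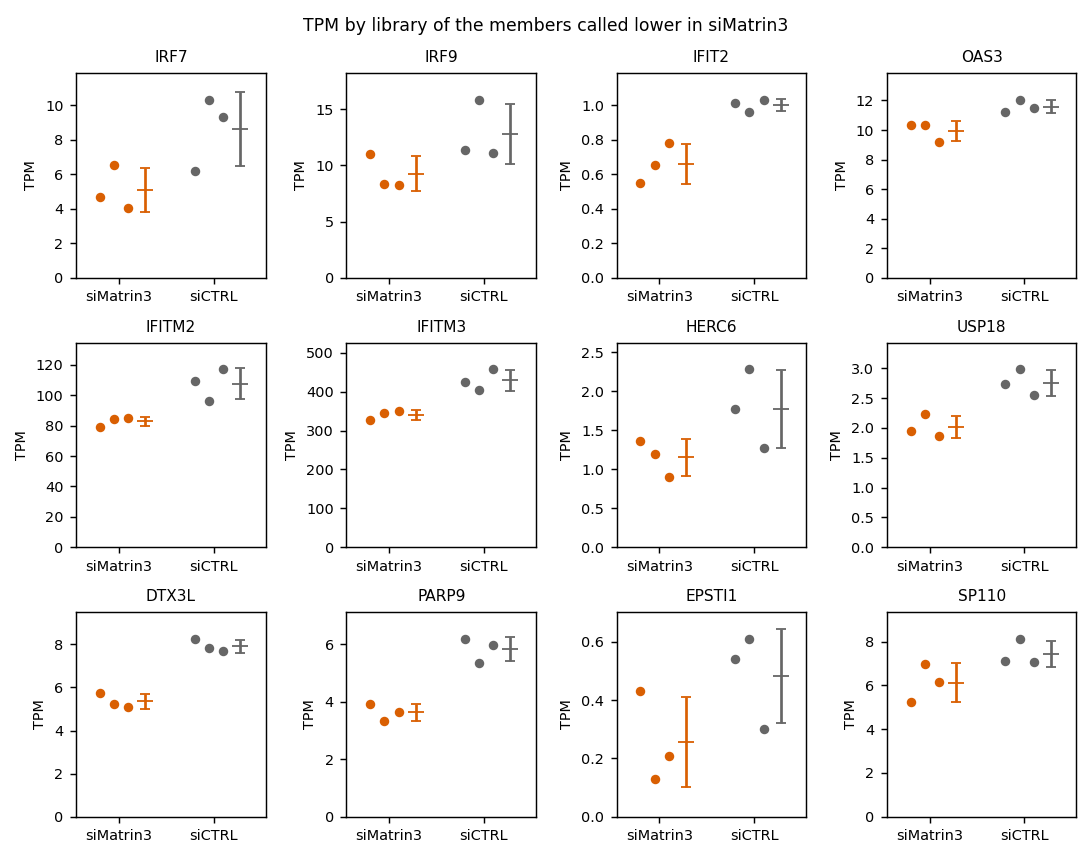
TPM of the 12 members called lower, where each point is a library of siMatrin3 (orange, left) or siCTRL (grey, right) and the line with its bar is the mean and SD of 3 libraries. The groups are apart for 9 of the 12, and overlap in TPM for IRF7, HERC6 and EPSTI1, whose calls rest on counts.

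Of the 3 IFI genes tested, edgeR and DESeq2 called 0 in either direction, and 2 were lower at an unadjusted p under 0.05. IFI6, a mitochondrial and endoplasmic reticulum protein that limits cell death and flavivirus replication, had 6.52, 6.73 and 8.07 TPM in siMatrin3 and 11.3, 8.74 and 8.71 TPM in siCTRL. Its groups were apart and its log2 fold change was -0.42, but it did not pass (SE 0.133, adjusted p from edgeR = 0.0731). IFI27 had a log2 fold change of -0.53 (edgeR adjusted p = 0.139) on 32 to 47 counts in siMatrin3 and 53 to 69 in siCTRL. IFI35 had 12.3, 11.5 and 9.23 TPM in siMatrin3 and 10.3, 11.9 and 10.02 TPM in siCTRL and a log2 fold change of 0.00.

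Among 11 other effectors, 8 were tested and 2 fell. SP110, a nuclear body protein, had 5.24, 6.98 and 6.17 TPM in siMatrin3 and 7.12, 8.12 and 7.06 TPM in siCTRL (log2 fold change -0.29 with an SE of 0.0823, edgeR adjusted p = 0.0457). The highest siMatrin3 value lay just under the lowest siCTRL value. EPSTI1, an epithelial-stromal interaction gene, had 18, 14 and 14 counts in siMatrin3 and 36, 37 and 25 in siCTRL (log2 fold change -1.09 with an SE of 0.289, edgeR adjusted p = 0.0372). This was the largest fall among the called members and rested on the fewest counts. Each kept its call in only 1 of the 6 fits that left out a library: SP110 without siMatrin3 replicate 2 (adjusted p 0.0484 to 0.16 over the fits) and EPSTI1 without siCTRL replicate 3 (adjusted p 0.0498 to 0.134).

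CMPK2, a mitochondrial nucleotide kinase, had 18, 24 and 15 counts in siMatrin3 and 28, 50 and 38 in siCTRL, and its log2 fold change of -1.03 did not pass (SE 0.353, adjusted p from edgeR = 0.0911). The log2 fold changes of the tetherin gene BST2, the exonuclease ISG20, the helicase DDX60, the translation inhibitor SAMD9 and TRIM22 were 0.12, 0.05, 0.02, -0.02 and 0.11. None of these 5 passed, and their groups overlapped. The 7 members too low to test were IFI44, IFI44L, MX2, OAS2, RSAD2, SAMD9L and XAF1, with at most 15 counts and 0.61 TPM in a library. IFI44 had 17 counts over the siMatrin3 libraries and 33 over the siCTRL libraries. OAS2 had 23 in siMatrin3 and 27 in siCTRL, SAMD9L 8 in siMatrin3 and 12 in siCTRL, and XAF1 9 in siMatrin3 and 4 in siCTRL. IFI44L had 0 in siMatrin3 and 3 in siCTRL, and MX2 had 2 in each group. RSAD2, the antiviral enzyme viperin, had 15 counts over the siMatrin3 libraries and 11 over the siCTRL libraries. Differences in these 7 genes were not detectable at this depth.

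The steps above the factors were examined with lists of the other genes of the pathway. None of 21 interferon ligand genes could be tested: 11 were at 0 in every library, the highest reached 0.39 TPM, and all together had 20 counts in siMatrin3 and 52 in siCTRL. Most of these counts came from IFNE, which had 8, 4 and 1 in siMatrin3 and 5, 17 and 16 in siCTRL, with overlapping groups. The 9 receptor chains and kinases were all expressed, and edgeR and DESeq2 called 0 of them in either direction, while 3 were lower at an unadjusted p under 0.05. IFNAR1 had 11.4, 11.5 and 11.3 TPM in siMatrin3 and 10.9, 12.6 and 15.1 TPM in siCTRL, with overlapping groups. In CPM its groups were apart, at 40.2, 42 and 38.5 in siMatrin3 and 43.2, 44.8 and 46.5 in siCTRL. It lay just outside the threshold (log2 fold change -0.16, edgeR adjusted p = 0.0508) and was called in 5 of the 16 alternatives. IFNAR2, JAK1 and TYK2 had log2 fold changes of -0.12, -0.08 and -0.02.

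Among the other STAT and IRF genes, STAT3, which signals for cytokines such as interleukin-6, fell by 0.18 on the log2 scale (edgeR adjusted p = 0.0216). Of 11 negative regulators, the SOCS, PIAS and PTPN genes with CISH, edgeR and DESeq2 called 0, with 1 lower and 1 higher at an unadjusted p under 0.05. The ISG15-activating enzyme UBA7 and the ligase HERC5 did not pass either. Within ISGF3, IRF9 was called lower and STAT2 was not, and the difference between them was not tested.

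**Figure D5:**
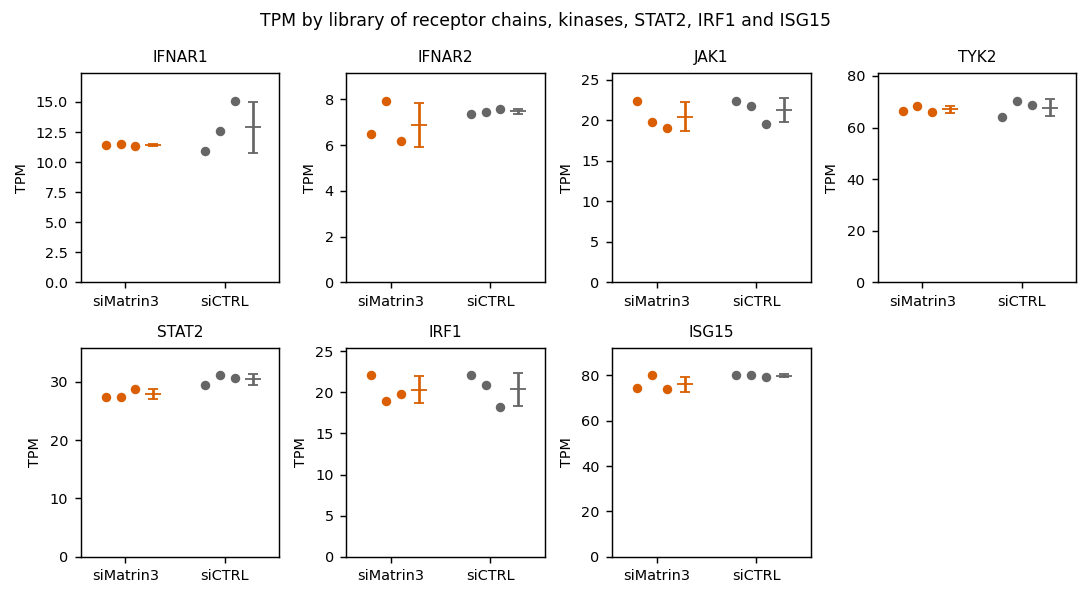
TPM of the receptor chains IFNAR1 and IFNAR2, the kinases JAK1 and TYK2, the factors STAT2 and IRF1, and ISG15 by library, drawn as points for siMatrin3 (orange, left) and siCTRL (grey, right) with the mean and SD of 3 libraries. None of these 7 genes passed the test, and of the 7 only STAT2 has groups that are apart in TPM.

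A further list of 34 interferon-induced genes outside the 42 showed changes in both directions. Of 30 tested, 5 fell and 3 rose. The falls were in the restriction factor TRIM5 (log2 fold change -0.36, edgeR adjusted p = 0.00574), the ubiquitin ligases TRIM21 and TRIM38 (-0.32 and -0.31), and the guanylate-binding proteins GBP2 and GBP3 (-0.89 and -1.04, edgeR adjusted p = 0.0392 and 0.0432). GBP2 and GBP3 were low, reaching at most 1.1 and 0.73 TPM in siCTRL and 0.66 and 0.33 TPM in siMatrin3. Of 6 fits that left out a library, GBP2 kept its call in 1 and GBP3 in 0. The rises were in TRIM14, the RNA helicase MOV10 and the mitochondrial exoribonuclease PNPT1, at 0.18, 0.19 and 0.18. ADAR, the RNA-editing enzyme, had a log2 fold change of -0.06. Over all 61 tested pathway genes outside the 42, 7 fell and 3 rose, with a median log2 fold change of -0.06, where 5.97% of all genes tested fell and 5.05% rose. TRIM5 kept its call in 14 of 16 alternatives, and the other 9 called genes kept theirs in 4 to 12. The count of falls was 1 to 5 when a library was left out, where 2.71% to 5.32% of all genes were called lower. Without siMatrin3 replicate 3 or siCTRL replicate 3 it was 1, where 2.71% and 2.75% of all genes were.

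Several called members lie next to each other, so the nearest tested genes on either side were read as well, a choice made after the values were seen. Beside PARP9, DTX3L and PARP14, KPNA1 and HSPBAP1 had log2 fold changes of 0.00 and 0.06. Beside the IFITM genes, PGGHG rose by 0.30 (edgeR adjusted p = 0.00282) and B4GALNT4 had 0.07. Beside IRF9, RNF31 and REC8 had -0.07 and -0.16, and beside the OAS genes PTPN11 and DTX1 had 0.01 and 0.14. Beside IRF7, PHRF1 had 0.07 and CDHR5 -0.82 (edgeR adjusted p = 0.304), and beside the IFIT genes FAS and PANK1 had 0.09 and 0.02. PGGHG thus changed in the direction opposite to the IFITM genes beside it, and the other neighbours did not pass the test.

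Leukocytes and fibroblasts express many interferon-stimulated genes, and their markers were read beside the members. The 6 leukocyte markers summed to 12.6 to 19.1 TPM in siMatrin3 and 12.1 to 17.3 TPM in siCTRL, nearly all of it CD68, a lysosomal protein that other cells also express. The 5 fibroblast markers summed to at most 19.1 TPM in siMatrin3 and at most 16.2 TPM in siCTRL, nearly all of it COL1A1. The sums of both lists overlapped between the groups, and endothelial markers stayed at or under 0.15 TPM.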

How the data were processed

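Poly(A) RNA of 3 siMatrin3 and 3 siCTRL libraries (TruSeq Stranded mRNA, paired reads) was aligned by the authors with STAR and quantified with RSEM. Processing notes of the submitters list cutadapt, STAR 2.5.1 and hg19, while the version of STAR in the methods differs. For each library the authors deposited expected counts (reads shared between genes are divided), TPM, FPKM (not used here) and transcript lengths averaged over isoforms. In all, 88.3% of genes had a symbol in the name table.

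After rounding, a filter on low counts (filterByExpr) and TMM scaling, expected counts were fitted without covariates in edgeR 4.0.16 (R 4.3.3, two-sided quasi-likelihood test), with Benjamini-Hochberg adjustment over all genes tested and a threshold of 0.05. Transcript length was tested with limma 3.58.1 on log2 values for genes with 50 or more expected counts in every library and 2 or more transcripts. Promoters came from RefSeq (GRCh38.p14), and exon overlap from GENCODE 44. No hg19 coordinates were converted.

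The members and lists were chosen with earlier results of these data known. Values per library are given for the 4 factors, called members and the 8 most abundant tested members, and other members shown in this way were added after their values were seen. Counts over the pathway lists include genes that are not reported here one by one. On simulated data for this comparison, over 16601 genes, edgeR recovered 87.8% of 2-fold and 59.2% of 1.3-fold changes, and called 12 unchanged genes. Over 11987 genes, the length test recovered 78% of shifts of 0.4 on the log2 scale. Alternatives were scaling by RLE or the upper quartile, no filter or 1 CPM in 3 libraries, a replicate block, DESeq2 1.42.0, a transcript length offset, limma on log2(TPM + 1) and log2(TPM + 0.1), other count minimums and the effective length for the length test, and leaving out each library. A fit without both libraries numbered 1 was added after seeing the data.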

Additional observations from a re-analysis of the deposited data

How the results depend on the processing

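No member was called higher under any of the 16 alternatives, and MATR3 kept its call, with a log2 fold change of -0.98 to -0.85 when a library was left out. The count of members called lower, 12 in the report, was 4 with the offset for transcript length, and likewise 4 in limma on log2(TPM + 1) or log2(TPM + 0.1), the cause of which was not tested. Of all genes, 2.48% were called lower with the offset. With limma 1.7% were on log2(TPM + 1) and 1.63% on log2(TPM + 0.1), against 5.97% in the report. IFIT2 and USP18, whose length was the same in every library, were among those that lost the call with the offset (edgeR adjusted p = 0.0864 and 0.0917). The count was 8 to 10 when a library was left out, where 2.71% to 5.32% of all genes were called lower. Without replicate 1 of both groups the count was 8, where 4.01% of all genes were called lower. With no filter on low counts it was 16, all 12 among them, where 4.83% of all genes were called lower. The median log2 fold change of the members was -0.16 with limma on log2(TPM + 1), where the pseudocount shrinks low genes, and -0.28 to -0.25 when a library was left out. Of the other pathway genes, 7 were called lower in the report, 11 with no filter, 12 with the replicate block, 2 with the length offset, 0 with limma at either pseudocount, 1 to 5 when a library was left out and 4 without replicate 1 of both groups. The shares of all genes called lower in these settings stand beside the counts of members. Pathway genes called higher, 3 in the report, were 1 with the length offset, 0 with limma at either pseudocount, 0 to 3 when a library was left out and 1 without replicate 1 of both groups. Shares of all genes called higher in these settings are not reported here. Single genes were refitted 430 times over 27 genes: 305 fits kept the gene's side of the threshold and 125 lost the call. No gene called in the report reversed its direction, and reversals were counted for called genes only. Uncalled genes could change sign. IRF1 went from -0.06 to 0.02 with the length offset, and PARP12 from 0.14 to -0.04 without replicate 1 of both groups. No member passed the length test in any alternative. Replicate numbers are shared by the groups, but libraries of the same number did not all deviate together (correlations of 0.177, 0.0896 and 7.21e-05), so the numbers were not taken as pairs. With the replicate block 16 members were called lower and 0 higher, the 12 of the report among them, and 8.21% of all genes were called lower, against 5.97% without the block. Not every library correlated best with its own number.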
